A study of Homo sapiens with 7 samples.

Results

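The genes described here are 9 enzymes and transporters of glutamine and glutamate metabolism, measured in Panc1 cells. Panc1 is an established cell line from a human pancreatic carcinoma, and RNA was read on Affymetrix arrays. They were named by symbol: GLUL, GLUD1, GOT1, GOT2, GPT2, SLC1A5, SLC38A1, SLC38A2 and GFPT1. Of these, 8 had at least 1 probe set annotated to that symbol alone, with 20 probe sets in all out of the 54613 tested, and 8 of the 19775 genes on the array. GPT2, the mitochondrial alanine aminotransferase, had no such probe set in the annotation used and was not analysed here. The set was drawn up around GLUL because its RNA differed between 2 clones of the same arm. Values of clone 5 against clone 1 are therefore given as a description, without a test.

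All cells carried a pcDNA3.1/V5-His plasmid, and each line was grown from a single cell. The S100P-labelled arm held 4 arrays, 2 of clone 5 and 2 of clone 1, whose plasmid encodes S100P, a small calcium-binding protein. The vector arm held 3 arrays, 1 of clone V1 and 2 of clone V3, with the plasmid lacking S100P. The cells had been grown in DMEM with fetal bovine serum, and total RNA was extracted before they were confluent. A clone is 1 isolate, so 4 clones stand behind the 7 arrays. Arrays of a clone go by their label letters, a and b. The labels leave unsaid whether these were separate cultures, so the spread behind each p-value may be technical. The study asked which genes S100P regulates.

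Values are log2 units made by the authors with RMA, so a difference of 1 is a 2-fold difference. Medians of the arrays lay between 4.51 and 4.58, arrays of one clone correlated at 0.996 to 0.998 across probe sets, and 32.1% to 33.3% of probe sets read at least 6. S100P itself, at its 1 probe set, read 5.36 to 5.95 on the S100P-labelled arrays and 4.65 to 6.01 on the vector arrays, with a limma adjusted p = 0.846, so the arms are named here as labelled. Of 8 markers of pancreatic ductal and epithelial cells, 6 read at least 6 on every array, among them KRT18 (12.55 to 13.68). The exceptions were CDH1, at 3.83 on V1, and KRT7, at 5.94 on clone 1 array b. Acinar, endocrine, leukocyte and hepatocyte markers all read below 6 on every array. Of the fibroblast markers COL1A1 (6.72 to 7.42) read above it, and PECAM1 and SLC1A2, of the endothelial and astrocyte lists, read above 6 on some arrays only (at most 6.08 and 6.18).

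Glutamine is the most abundant amino acid in blood and carries nitrogen and carbon into growing cells. Transporters of the plasma membrane bring it in, and the glutamate made from it feeds the citric acid cycle, the transaminases and glutathione. GLUL, glutamine synthetase, runs the other way and makes glutamine from glutamate and ammonia. Pancreatic cancer cells are known for sending glutamine-derived aspartate from mitochondria to the cytosol through GOT2 and GOT1, and for using GFPT1, the first enzyme of the hexosamine pathway, to supply sugars for glycosylation.

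The promoters of 3 genes are printed because the results turn on them: GLUL and SLC38A2 are the members that varied most between clones, in opposite orders, and ASNS, asparagine synthetase, is a glutamine-using gene that followed SLC38A2. Sequences are from RefSeq on build GRCh38.p14, 250 bases before to 50 bases from the annotated start, written 5′ to 3′ on the gene's strand. They lie at chr1:182391741-182392040 for GLUL, chr12:46372724-46373023 for SLC38A2 and chr7:97872359-97872658 for ASNS, all on the minus strand. For GLUL and ASNS the table holds 1 more start each, and the one shown is listed first. Capitals mark matches on either strand to CCAAT, a box bound by the factor NF-Y, to GGGCGG, a GC box, and to TGATGNAA, the core of the element through which ATF4 acts on amino acid stress genes.
GLUL: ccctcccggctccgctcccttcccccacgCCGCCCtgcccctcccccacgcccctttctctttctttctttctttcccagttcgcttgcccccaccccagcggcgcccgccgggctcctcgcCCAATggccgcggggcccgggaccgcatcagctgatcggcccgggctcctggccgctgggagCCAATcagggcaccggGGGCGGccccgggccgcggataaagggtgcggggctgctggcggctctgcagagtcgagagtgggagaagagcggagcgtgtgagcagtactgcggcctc
SLC38A2: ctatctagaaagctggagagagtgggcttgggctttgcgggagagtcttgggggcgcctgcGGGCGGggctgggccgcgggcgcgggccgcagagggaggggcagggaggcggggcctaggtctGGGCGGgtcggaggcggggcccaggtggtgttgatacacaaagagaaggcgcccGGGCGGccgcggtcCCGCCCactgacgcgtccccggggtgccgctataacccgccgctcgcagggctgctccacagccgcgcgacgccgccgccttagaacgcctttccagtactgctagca
ASNS: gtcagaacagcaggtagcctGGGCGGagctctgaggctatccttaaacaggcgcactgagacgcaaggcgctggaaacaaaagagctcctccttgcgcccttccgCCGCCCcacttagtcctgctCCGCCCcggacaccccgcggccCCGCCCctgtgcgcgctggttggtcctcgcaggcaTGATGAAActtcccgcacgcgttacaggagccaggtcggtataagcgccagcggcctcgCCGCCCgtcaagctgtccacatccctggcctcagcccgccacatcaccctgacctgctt

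In these windows GLUL held 2 CCAAT and 2 GGGCGG matches. SLC38A2 held 4 GGGCGG matches and none to the other motifs. ASNS held 5 GGGCGG matches and 1 to TGATGNAA, which starts at position -68 from the annotated start. No base belonged to more than 1 match. Among all 35116 promoters of the same length, 34.6% held CCAAT, 45.0% GGGCGG and 3.6% TGATGNAA. Of the 8 members with a promoter in the table, GOT1, SLC1A5 and SLC38A1 held TGATGNAA in 1 window each. These matches describe letters in the window only.

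GLUL was lowest in clone 1 and highest in the vector clones, with clone 5 between them. At the probe set of highest mean, 215001_s_at, it read 8.53 and 8.61 on clone 5, 6.23 and 6.14 on clone 1, 9.54 on V1 and 9.12 and 9.24 on V3. The 2 arrays of clone 1 thus stood well below all others, while clone 5 lay just under the vector arrays. GLUL was 5.23-fold higher in clone 5 than in clone 1 (log2 difference 2.39). Against the mean of the vector clones, the log2 difference was -0.79 in clone 5 (1.73-fold lower) and -3.18 in clone 1 (9.03-fold lower). The value that drew attention to GLUL between clones 5 and 1 therefore goes with a low level in clone 1, and clone 5 was not above the vector clones.

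The other GLUL probe sets gave the same order of clones where they were bright. At 200648_s_at GLUL read 7.03 and 6.98 on clone 5, 4.88 and 4.96 on clone 1, 7.92 on V1 and 7.55 and 7.79 on V3. At 217202_s_at it read 6.88 and 6.94 on clone 5, 5.62 and 5.46 on clone 1, 7.66 on V1 and 7.53 and 7.25 on V3. Clone 1 was lowest at both, and clone 5 was below every vector array. The difference of clone 5 over clone 1 was 4.25-fold at the first and 2.57-fold at the second. The remaining probe set, 242281_at, was dim, with only 25.7% of probe sets below its mean. It read 3.09 to 3.52 over the 7 arrays, again lowest in clone 1. Here clone 5 had the highest mean (3.46, against 3.37 in V3 and 3.30 in V1).

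**Figure D1:**
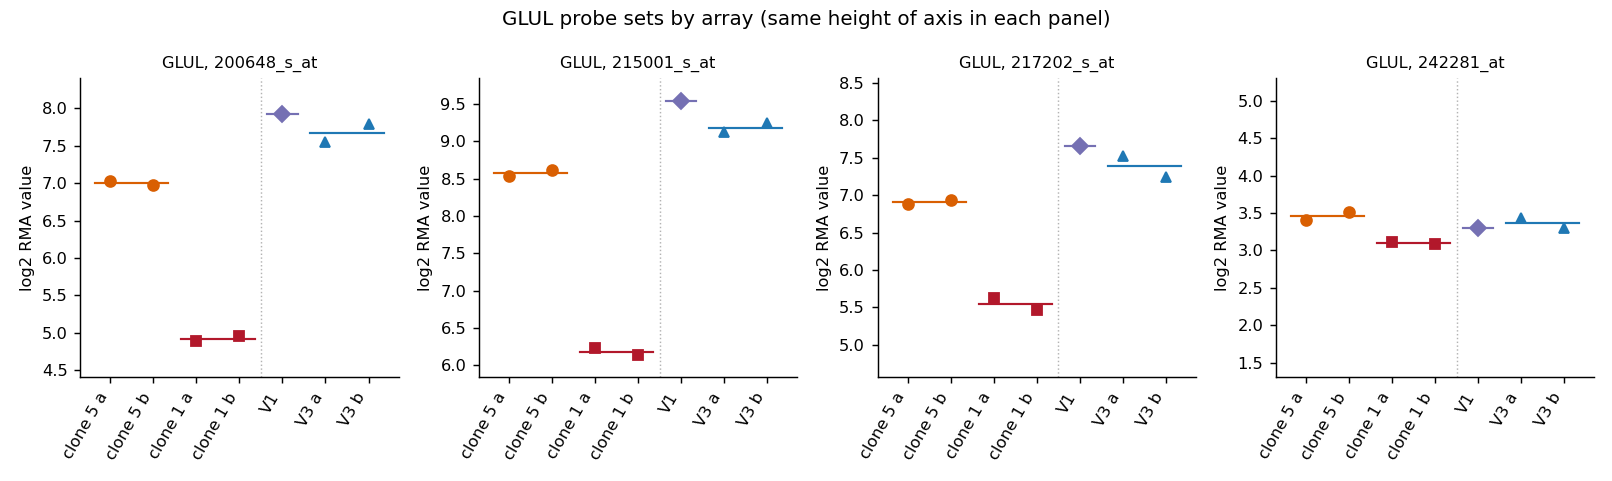
GLUL at its 4 probe sets. The vertical axis is the log2 RMA value with the same height in each panel, points are arrays, bars are clone means, and the dotted line parts the S100P-labelled arrays (left) from the vector arrays. At 3 probe sets clone 1 lies between 4.88 and 6.23, clone 5 between 6.88 and 8.61, and the vector arrays between 7.25 and 9.54.

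Between the arms, GLUL averaged 7.38 ± 1.38 on the S100P-labelled arrays (SD, n = 4) and 9.30 ± 0.21 on the vector arrays (SD, n = 3). The arrays of the arms did not overlap, as in 14.2% of all genes. This comparison weights clones 5 and 1 alike, and the difference between them enters its error. The low clone 1 values behind the choice of GLUL also lower the mean of this arm. The size of the arm difference is therefore not independent of that choice. The fitted log2 difference was -1.94 (SE 0.62, 95% interval -3.37 to -0.52), with a limma adjusted p = 0.245, so GLUL did not pass. The SD of the S100P-labelled arm is mostly the gap between its clones. The difference was -0.69 without clone 1 (limma adjusted p = 0.0708) and -3.11 without clone 5 (limma adjusted p = 0.00433), and only the second passed. With the arrays of each clone averaged it was -1.98 (limma adjusted p = 0.669). With clone 5 left out the arm is clone 1 alone, one of the clones GLUL was picked on. At 200648_s_at and 217202_s_at the arm differences were -1.81 (SE 0.55, limma adjusted p = 0.215) and -1.27 (SE 0.37, limma adjusted p = 0.196). Between the vector clones, whose arrays the contrast of clone 5 with clone 1 did not use, GLUL differed by 0.36 for V1 minus V3 (SE 0.12, limma adjusted p = 0.138). It was not called.

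SLC38A2, a sodium-coupled carrier of small neutral amino acids such as glutamine and alanine, ran in the opposite order to GLUL. At its probe set of highest mean, 222982_x_at, it read 11.99 and 11.94 on clone 5, 12.45 and 12.38 on clone 1, 11.37 on V1 and 11.86 and 11.91 on V3. Clone 1 was highest, V1 was lowest, and clone 5 and V3 were close together. The other probe sets, 218041_x_at and 220924_s_at, read 12.24 to 12.33 on clone 1 and 11.14 and 11.12 on V1. Clone 5 read 11.61 to 11.67 at these probe sets and V3 read 11.56 to 11.65, so those clones overlapped.

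In V1, SLC38A2 fell relative to V3 at all 3 probe sets. Of these, 222982_x_at and 218041_x_at are of a kind open to cross-hybridization. The log2 difference was -0.52 at 222982_x_at (1.43-fold lower, SE 0.11, limma adjusted p = 0.0396, 1 against 2 arrays). It was -0.50 at 218041_x_at and -0.48 at 220924_s_at (limma adjusted p = 0.0370 and 0.0491). This fit takes its spread from arrays of the same clone, with 3 residual degrees of freedom, and compares these clones, not conditions. At the probe set of highest mean the call was lost without any single array of clones 5, 1 or V3, which leaves 2 residual degrees of freedom. Leaving out an array of clone 5 or 1 changes only the spread, so the difference stayed at -0.52. It gives the same fit as leaving out that whole clone. The difference was -0.55 without V3 array a and -0.49 without V3 array b. V1 is 1 array, and its description has a prefix that the other 6 lack, so V1 as a clone and V1 as a separately handled array cannot be told apart. Between the arms the SLC38A2 difference was 0.51 (SE 0.18, 95% interval 0.09 to 0.93, limma adjusted p = 0.307), and it was 0.69 without clone 5, 0.20 without clone 1, 0.31 without V1 and 0.82 without V3, not called in any of these. The arms did not overlap at 222982_x_at but did at the other probe sets. GLUL and SLC38A2 were the 2 of 8 members whose arms did not overlap at the probe set of highest mean, against 14.2% of all genes.

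Of the measured members, 1 of 8 passed between V1 and V3 at the probe set of highest mean, against 7.72% of all genes (5.08% lower in V1). In a set of 8 that is the difference between 1 gene and none. At an unadjusted p under 0.05 the count was 3 of 8, against 24%, and 6 of 20 probe sets, against 19.9%. Those probe sets were of GLUL, SLC38A1 and SLC38A2 only. Between the arms 0 of 8 members passed with limma, against 1.55% of all genes (1.03% higher and 0.526% lower), and 2 of 8 had an unadjusted p under 0.05, against 15.1% of all genes. By probe set, 0 of 20 passed between the arms, against 1.12% (0.776% higher and 0.342% lower), and 7 of 20 had an unadjusted p under 0.05, against 11.8%. Those 7 were the bright probe sets of GLUL, all probe sets of SLC38A2 and 218237_s_at of SLC38A1. They are repeat readings of few genes, and GLUL was picked on these arrays, so no excess among the members is read from them. Between V1 and V3, 3 of 20 passed, all of them SLC38A2 and lower in V1, against 5.85% in all and 3.28% lower. The median log2 difference of the members between the arms was 0.03, against 0.00 for all genes.

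**Figure D2:**
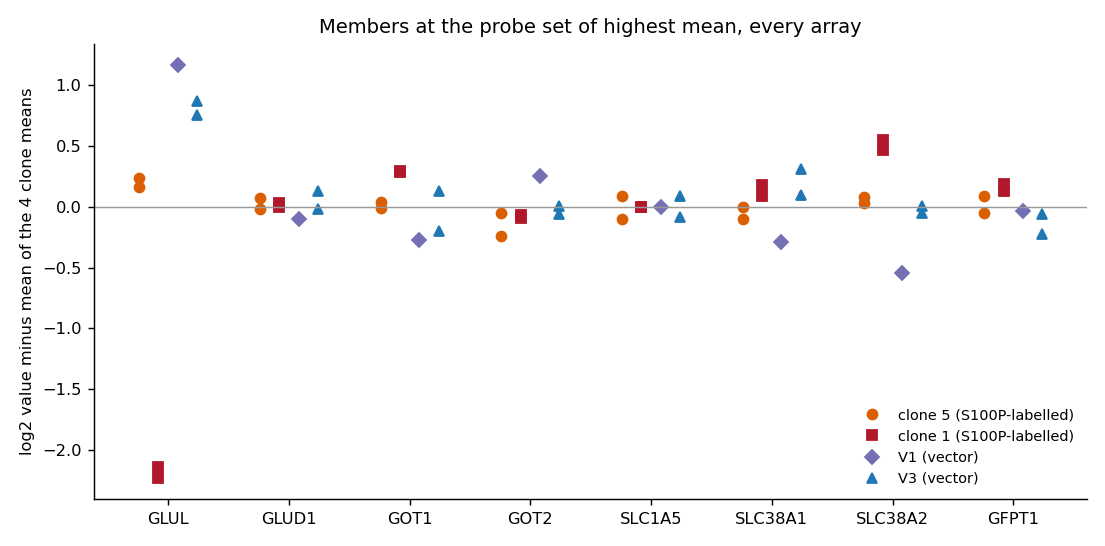
The 8 measured members at the probe set of highest mean. The vertical axis is the log2 value minus the mean of the 4 clone means for that gene, and each point is an array, with clone 5 and clone 1 left of V1 and V3. GLUL spans 3.40 log2 units and SLC38A2 1.09, while the other 6 genes span 0.19 to 0.60.

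SLC38A1, a close relative of SLC38A2 with similar cargo, gave different answers at different probe sets. At 218237_s_at it read 11.29 and 11.24 on clone 5, 11.57 and 11.52 on clone 1, 11.02 on V1 and 10.43 and 10.66 on V3. The arms did not overlap there, and the log2 difference was 0.67 (SE 0.16, 95% interval 0.31 to 1.04, limma adjusted p = 0.110). At 224579_at, the probe set of highest mean, it read 11.04 and 11.14 on clone 5, 11.32 and 11.22 on clone 1, 10.85 on V1 and 11.24 and 11.45 on V3. The arms overlapped, with an arm difference of 0.03 (SE 0.16, limma adjusted p = 0.973), or 0.30 with the median of the probe sets (limma adjusted p = 0.189). For V1 minus V3 these probe sets had opposite signs, 0.48 and -0.50 (SE 0.13 each, limma adjusted p = 0.0852 and 0.0795), neither called. The difference at 224579_at passed with dim probe sets left out (limma adjusted p = 0.0184), after quantile normalization again (0.0324) and with another variance prior (0.0310). The other SLC38A1 probe sets, 224580_at and 236857_at, differed by 0.09 and 0.10 between the arms (limma adjusted p = 0.891 and 0.857). No direction can be given for SLC38A1 as a gene.

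**Figure D3:**
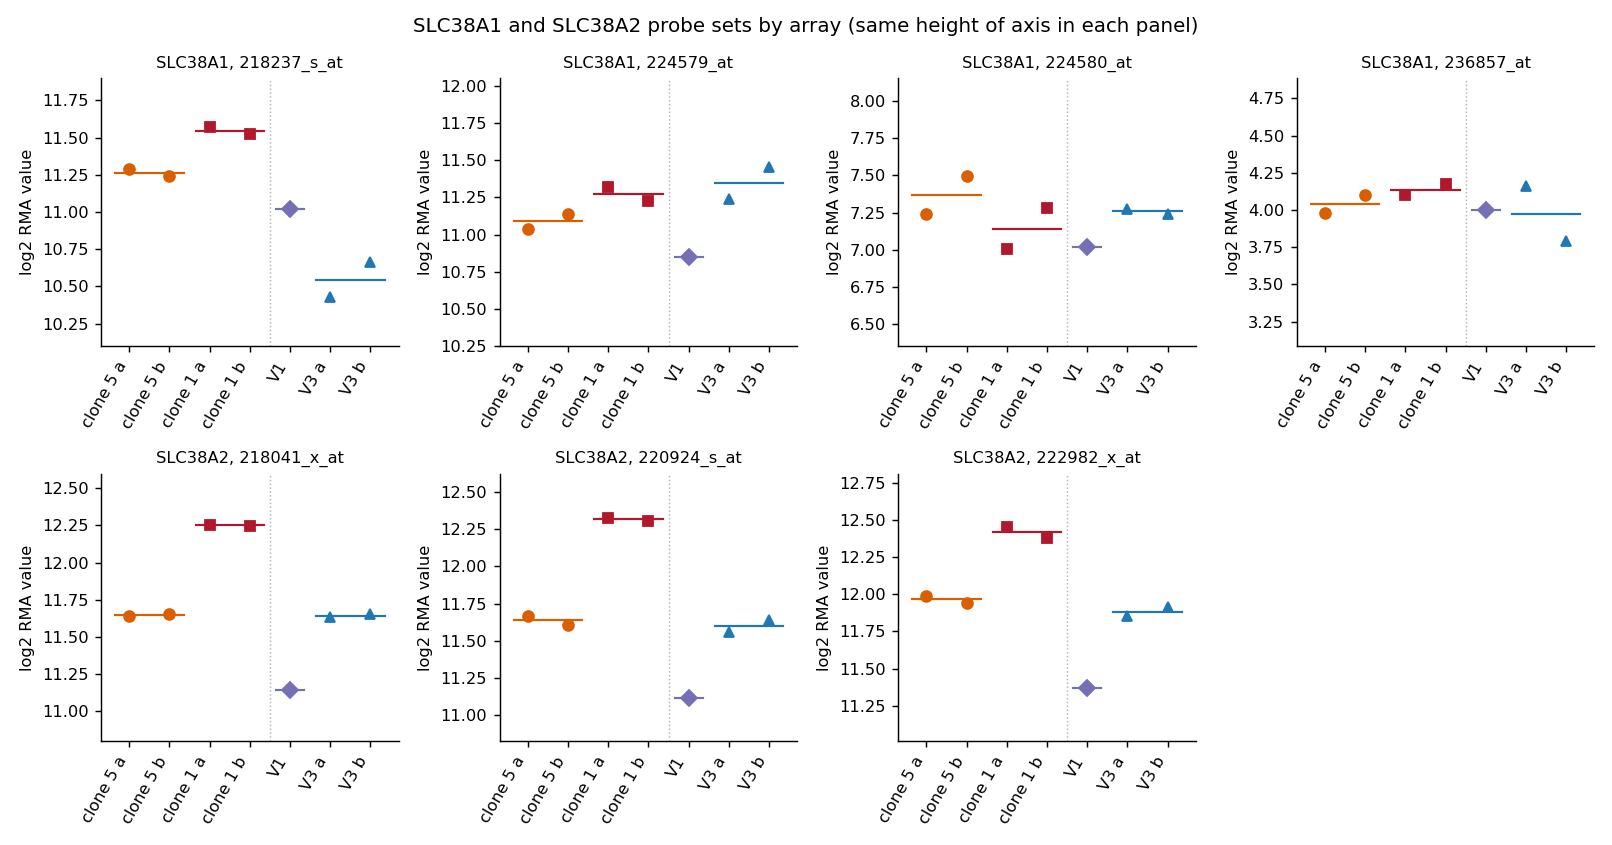
SLC38A1 (4 probe sets) and SLC38A2 (3 probe sets) by array. Axes, points and bars are as in the plot of GLUL probe sets, with a smaller common height. All SLC38A2 panels have clone 1 on top and V1 at the bottom, while V3 is lowest at SLC38A1 218237_s_at (10.43 and 10.66) and highest at 224579_at (11.24 and 11.45).

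SLC1A5, the exchanger that is a main route of glutamine into many cancer cells, was the most even member. It read 8.91 and 9.10 on clone 5, 9.01 and 9.01 on clone 1, 9.01 on V1 and 8.92 and 9.09 on V3. Its arm difference was 0.00 (SE 0.10, 95% interval -0.22 to 0.22, limma adjusted p = 0.999). The gap between arrays of one clone was as wide as the whole range of 0.19, so no order of clones can be read from it.

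Among the enzymes that pass nitrogen to and from glutamate, none differed between the arms beyond the error of the fit. GLUD1, mitochondrial glutamate dehydrogenase, read 9.60 to 9.83 over the 7 arrays at 200947_s_at, with an arm difference of 0.02 (SE 0.09, 95% interval -0.19 to 0.24, limma adjusted p = 0.960). At 200946_x_at, a probe set kind open to cross-hybridization, the difference was -0.08 (SE 0.09, not called). GLUD1 has closely related copies, so its level is uncertain to that extent.

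GOT1, the cytosolic aspartate aminotransferase, read 10.08 and 10.13 on clone 5, 10.38 and 10.39 on clone 1, 9.82 on V1 and 10.23 and 9.89 on V3. It was highest in clone 1 and lowest in V1, and the arms overlapped through V3 array a. The difference between the arms was 0.28 (SE 0.14, 95% interval -0.05 to 0.60, limma adjusted p = 0.513). GOT2, its mitochondrial counterpart, read 9.98 and 10.16 on clone 5, 10.14 and 10.12 on clone 1, 10.46 on V1 and 10.15 and 10.22 on V3. V1 was highest here, unlike in GOT1, and the arm difference was -0.19 (SE 0.11, 95% interval -0.45 to 0.06, limma adjusted p = 0.569). For V1 minus V3, GOT1 differed by -0.24 and GOT2 by 0.28 (limma adjusted p = 0.471 and 0.264), neither called.

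GFPT1, which draws glutamine into hexosamine synthesis, read 9.49 and 9.36 on clone 5, 9.53 and 9.59 on clone 1, 9.37 on V1 and 9.18 and 9.34 on V3 at 202722_s_at. The arm difference was 0.19 (SE 0.10, 95% interval -0.04 to 0.42, limma adjusted p = 0.538), and the other 3 probe sets differed by 0.08 to 0.13 with limma adjusted p of 0.831 to 0.857. At 226886_at clone 5 read 7.70 and 7.84, clone 1 8.22 and 8.15, V1 7.75 and V3 7.82 and 7.98. Clone 1 was above all other arrays at that probe set, as at 202722_s_at and 202721_s_at.

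**Figure D4:**
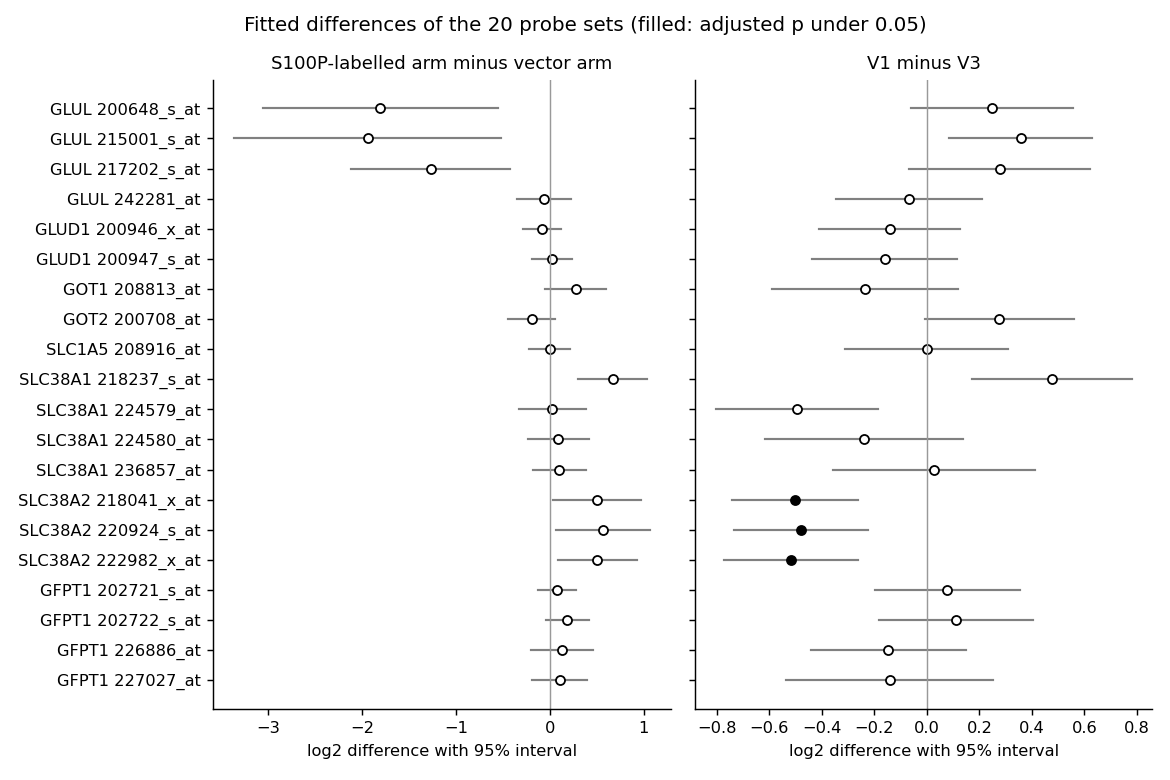
Fitted log2 differences of the 20 member probe sets with 95% intervals, the S100P-labelled arm minus the vector arm (left, clone as a random block) and V1 minus V3 (right, clones as fixed effects). Filled points passed the limma test at an adjusted p under 0.05, which in these data are the 3 SLC38A2 probe sets for V1 minus V3. The horizontal scales differ.

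As a description of clone 5 minus clone 1 at the probe set of highest mean, GLUL was the 1 member of 8 with at least a 2-fold difference, a size reached by 0.769% of all genes. SLC38A2 differed by -0.45, GOT1 by -0.28, SLC38A1 by -0.18 and GFPT1 by -0.14, all lower in clone 5. GOT2 (-0.07), GLUD1 (0.01) and SLC1A5 (0.00) were level. The largest gap between arrays of one clone at these probe sets was 0.33, so of these values GLUL and SLC38A2 were larger than that gap.

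Other genes of the pathway were grouped in 8 lists of 109 genes, of which 101 had a probe set with 1 symbol. The others were not analysed here. Between the arms 0 of the 101 passed with limma, against 1.55% of all genes, 24 had an unadjusted p under 0.05, against 15.1%, and 59 had a difference above 0, against 9880 of the 19775 genes. The count was 6 without clone 5 and 3 without V1, so it changed with the clones that stood for an arm. The share of all genes called in those fits is not given here, so nothing about the listed genes is read from these counts. Between V1 and V3, 23 of 101 passed, 2 higher and 21 lower in V1, against 2.64% of all genes higher and 5.08% lower. At an unadjusted p under 0.05 there were 46, against 24%. The lists were chosen with earlier results of these data known, so these counts are a description. Of the 21 lower calls, 10 were in the list of amino acid and endoplasmic reticulum stress. The count of 23 was 0 without any 1 array of clone 1 or V3, where limma has 2 residual degrees of freedom, and 12 without an array of clone 5.

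Of 8 glutamine-using enzymes measured, 1 rose and 3 fell in V1 relative to V3. PPAT, the first enzyme of purine synthesis, rose 2.31-fold (limma adjusted p = 0.00626). ASNS fell 3.11-fold (limma adjusted p = 0.00146) and the CTP synthase CTPS2 4.02-fold (limma adjusted p = 0.00205), while the NAD synthetase NADSYN1 fell 1.60-fold (limma adjusted p = 0.0296). With the median of each gene's probe sets the calls of PPAT (log2 difference 0.27, against 1.21 at the probe set of highest mean, limma adjusted p = 0.372) and NADSYN1 (-0.25, against -0.68, limma adjusted p = 0.255) were lost. ASNS was then -0.81, against -1.64, and CTPS2 -1.38, against -2.01, and both still passed. CTPS2 was dim, at 3.91 on V1 and 5.90 and 5.93 on V3, and read at least 6 only on clone 1 (6.26 and 6.08). ASNS read 11.56 and 11.73 on clone 5, 12.22 and 12.20 on clone 1, 10.06 on V1 and 11.66 and 11.73 on V3, so clone 1 was highest and V1 lowest, as for SLC38A2. PPAT was near 9 in clones 5 and 1 and on V1 (9.04 to 9.20) and lower on V3 (7.80 and 8.06).

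Among 18 enzymes that use or make glutamate or work in pathways to and from it, 3 fell in V1 and none rose. BCAT1, a branched-chain aminotransferase, fell 6.31-fold (limma adjusted p = 0.00222), and it read 7.27 and 7.24 on clone 5, 6.01 and 5.60 on clone 1, 5.87 on V1 and 8.76 and 8.30 on V3. ALDH5A1, which ends the breakdown of GABA, fell 2.57-fold and PSAT1, a transaminase of serine synthesis, 1.99-fold (limma adjusted p = 0.00643 and 0.00475). With the median of probe sets BCAT1 was -1.30, against -2.66, and ALDH5A1 -0.55, against -1.37, and both still passed. BCAT1 was thus low in both clone 1 and V1, unlike GLUL, which at its probe set of highest mean was lowest in clone 1 and highest in V1. ALDH5A1 was dim, at 3.05 on V1 and 4.35 and 4.48 on V3. It read at least 6 only on clone 1 array a (6.05).

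Of 9 glutathione genes SLC7A11, which exchanges glutamate for cystine, fell 2.06-fold in V1 (limma adjusted p = 0.0114), and GCLM, the modifier subunit of glutamate-cysteine ligase, rose 1.54-fold (limma adjusted p = 0.0218), a log2 difference of 0.62 that was 1.10 with the median of probe sets. Of 21 other amino acid transporters 3 fell in V1 and none rose. SLC1A4, an exchanger of neutral amino acids related to SLC1A5, fell 2.55-fold (limma adjusted p = 0.00235), SLC38A9, a lysosomal amino acid sensor, 1.84-fold (limma adjusted p = 0.00875) and SLC38A6 by 0.58 on the log2 scale (limma adjusted p = 0.0333). The SLC38A9 call was lost with the median of probe sets (-0.35, against -0.88, limma adjusted p = 0.104). SLC1A4 read 7.83 and 7.74 on clone 5, 8.55 and 8.56 on clone 1, 6.97 on V1 and 8.24 and 8.40 on V3.

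With all arrays, no gene of the hexosamine list (7 measured) or the malate-aspartate shuttle list (6 measured) passed with limma in either comparison. At an unadjusted p under 0.05 there were 3 hexosamine and 0 shuttle genes between the arms, against 15.1% of all genes, and 2 of each list between V1 and V3, against 24%. UAP1, which makes UDP-N-acetylglucosamine, differed by 0.62 between the arms (SE 0.25, limma adjusted p = 0.378) and read 11.34 and 11.31 on clone 5, 12.21 and 12.19 on clone 1, 10.94 on V1 and 11.23 and 11.33 on V3. The UAP1 difference was 1.03 without clone 5, where it passed (limma adjusted p = 0.0282), and 0.12 without clone 1. OGA, which removes O-GlcNAc, differed by 0.36 (SE 0.13, limma adjusted p = 0.314), and by 1.52 with the median of its probe sets (limma adjusted p = 0.156), so its size depends on the probe set. OGDH of the citric acid cycle differed by -0.21 and the aspartate-glutamate carrier SLC25A12 by -0.13 (limma adjusted p = 0.596 and 0.675).

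Of 18 genes of amino acid and endoplasmic reticulum stress, 10 fell in V1 relative to V3 and none rose. Of all genes, 5.08% were called lower and 2.64% higher. This list was chosen with earlier results of these data known, so the count is a description. NUPR1 fell 7.08-fold and PHGDH, the first enzyme of serine synthesis, 5.53-fold (limma adjusted p = 6.78e-04 each). DDIT4, an inhibitor of mTORC1, fell 2.68-fold and the lipoprotein receptor gene VLDLR 2.51-fold (limma adjusted p = 0.00424 and 0.0161). VLDLR was dim, at 3.58 to 5.13 over the 7 arrays. Relative to the mean of the 4 clones, the stress list median was 0.04 in clone 5, 0.71 in clone 1, -0.70 in V1 and 0.00 in V3. That order was also seen in SLC38A2. Of 14 genes reported to regulate GLUL or found with it in Wnt-responsive liver cells, CRBN, the substrate receptor that takes GLUL to a ubiquitin ligase, fell 1.75-fold in V1 (limma adjusted p = 0.0238) and no other passed.

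The 3' minus 5' log2 difference of the ACTB control probe sets, a measure of RNA quality, ran in the same order of clones as SLC38A2 at its ends. It was 0.29 and 0.27 on clone 5, 0.53 and 0.44 on clone 1, 0.18 on V1 and 0.28 and 0.32 on V3. The GAPDH difference was 0.07 and 0.06 on clone 5, 0.08 and 0.08 on clone 1, 0.01 on V1 and 0.09 and 0.14 on V3. The keratins KRT8, KRT18 and KRT19 were lowest in clone 1, as GLUL was, while SOX9 and CDH1 of the same list were highest there. SOX9 read 11.29 and 11.39 on clone 1 and 9.96 to 11.20 on the other arrays. CDH1 read 7.79 and 7.66 on clone 1 and 3.83 to 7.37 on the other arrays. For KRT7, EPCAM and CLDN4 the clone 1 arrays did not both lie at one end. KRT8 read 11.61 and 11.92 on clone 5, 10.63 and 10.59 on clone 1, 11.68 on V1 and 12.30 and 12.55 on V3. KRT19 read 12.04 and 12.23 on clone 5, 10.80 and 10.83 on clone 1, 11.74 on V1 and 12.33 and 12.36 on V3. Over the 8 ductal and epithelial markers the summed log2 level was 76.05 to 79.04 on the S100P-labelled arrays and 74.54 to 80.22 on the vector arrays. The part of RNA quality or of these markers in the values of GLUL, SLC38A2 and the stress list was not tested.

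**Figure D5:**
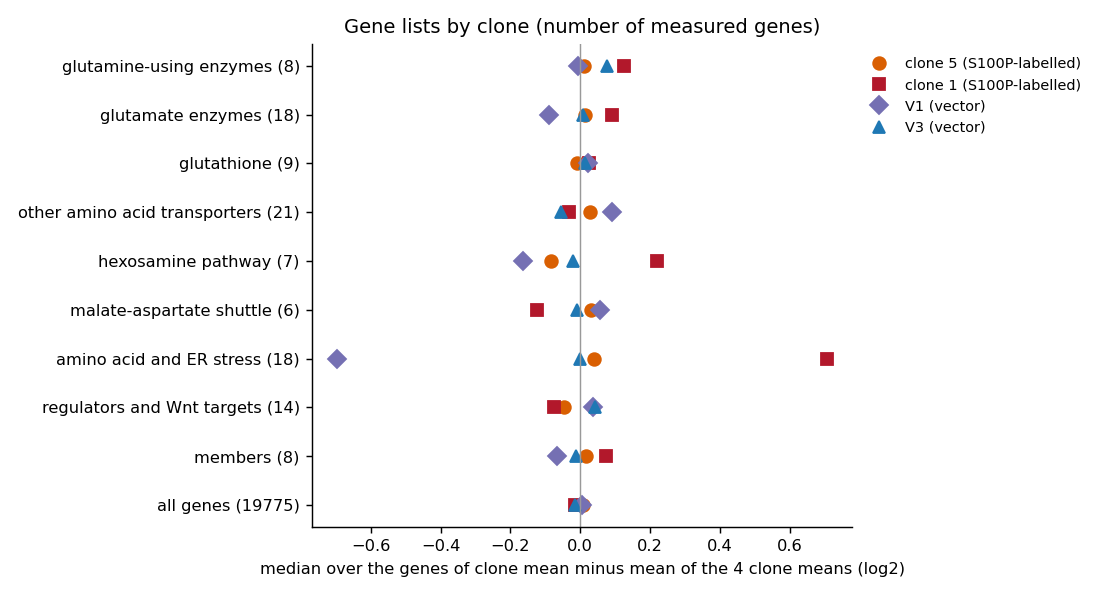
Gene lists by clone. The horizontal axis is the median, over the measured genes of a list, of the clone mean minus the mean of the 4 clone means in log2 units, and a symbol is a clone. The stress list spreads from -0.70 in V1 to 0.71 in clone 1, the members lie between -0.07 and 0.07, and all genes lie between -0.01 and 0.01.

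GLUL was also set against each of the 819 genes with an SD of at least 0.5 over the 7 arrays, by Pearson's r at the probe set of highest mean. These arrays come from 4 clones, and the low values of clone 1 can carry much of an r. For that reason r without clone 1 (5 arrays) is given beside it, and no p is given. The genes most like GLUL were the drug efflux pump ABCG2 (r = 0.986, 0.988 without clone 1), CRMA (0.976, 0.584), the intermediate filament gene NES (0.973, 0.856), the organic anion transporter SLCO4A1 (0.972, 0.90) and the ubiquitin-conjugating enzyme UBE2T (0.972, 0.965). The most opposite were RASD1 (r = -0.997, -0.999 without clone 1), the stress factor DDIT3 (-0.996, -0.946), the protease inhibitor CSTA (-0.996, -0.961), ARFGEF3 (-0.994, -0.961) and SESN2, a sensor of amino acid shortage (-0.994, -0.976). ABCG2 read 6.66 and 6.52 on clone 5, 4.63 and 4.21 on clone 1, 8.23 on V1 and 7.69 and 7.79 on V3. In all, 23 of these genes had an r above 0.9 with GLUL and 138 one below -0.9. Among the members, SLC38A2 (r = -0.901, -0.791 without clone 1) and GOT1 (-0.856, -0.634) were the most opposite to GLUL, and GOT2 was the most alike (0.403, 0.870).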

How the data were processed

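RNA of 7 Panc1 arrays was measured on the Affymetrix HG-U133 Plus 2.0 platform. The authors used RMA to make the deposited values, per the submitters' processing notes. Their scale is not stated, but the values lie in a range typical of log2 RMA values, and the deposited values were used as log2. The RMA version is not given in the sources used here. RMA shrinks differences between dim values.

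Of 54675 probe sets 62 were controls and 54613 were tested. Genes were named from the platform annotation where a probe set had 1 symbol (41091 probe sets, of which 41037 matched RefSeq by Entrez number). Each gene was read at the probe set with the highest mean over the arrays. Models were fitted in R 4.3.3 with limma 3.58.1 and, for the random block, statmod 1.5.0. P-values are two-sided and were adjusted by Benjamini-Hochberg over all 54613 probe sets and a threshold of 0.05. Figures used matplotlib 3.10.9. The arms were compared with the clone as a random block (consensus correlation 0.287), and V1 with V3 in a model of 4 fixed clone effects, where the lone V1 array is assumed to vary like the other clones. Fits were tested on simulated data. Depth does not apply to arrays, whose number limits the precision.

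Members and lists were chosen with earlier results of these data known, and lists are described by counts and medians. Text names all members, up to 4 called genes of each list or else 2 of largest arm difference, and the 5 genes most and least like GLUL. Alternatives covered clone handling, normalization, dim probe sets (under 6 on all but 1 array), the variance prior, probe set choice and leaving out arrays or clones.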

Additional observations from a re-analysis of the deposited data

Results flagged for a closer look

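GFPT1 at 227027_at had 1 array of the S100P-labelled arm far from the other 3. Its highest value, 7.89 on clone 1 array a, stood apart by 0.931 of the range of the 4 arrays, which read 7.75 and 7.74 on clone 5 and 7.75 on clone 1 array b. The whole range was small, and chance alone is expected to single out about 1 in 20 such groups. It was 1 of 20 probe sets examined.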

How the results depend on the processing

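Between the arms, 0 of 8 members passed under each alternative tried except the one without clone 5 (1, GLUL, -3.11), and GLUL kept its sign in all 18, from -3.11 to -0.69. Without any single array its difference ranged from -2.21 to -1.51. The count of listed genes called was 0, and became 1 with the median of a gene's probe sets, 1 with the array letter as a replicate block (without V1), 6 without clone 5, 9 without clone V3, and 0 to 3 without a single array. Arrays of the same letter did not deviate together (correlations of 0.05, -0.08 and 0.06), so no pairing by letter was seen. These correlations cannot exclude a pairing with a small shared effect. Values near 0 turned sign. GLUD1 was -0.027 with the median of probe sets, 0.00 after quantile normalization again, -0.038 with the replicate block and -0.038 to 0.08 without single arrays. SLC38A1 was -0.17 with the replicate block, -0.14 without clone 1 and -0.17 to 0.14 without single arrays. SLC1A5 was 0.00 without clone 5 and -0.044 to 0.041 without single arrays.

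For V1 minus V3 the count of members was 1, and 2 with dim probe sets left out, after quantile normalization again and with the trended prior, but 0 with the replicate block, without clone 1, without clone 5 and without any single array. The count of listed genes was 23, and 35 with dim probe sets left out, 0 without clone 1, 12 without clone 5 and 0 to 12 without single arrays. Fewer arrays leave 2 residual degrees of freedom. Leaving out 1 array of clone 5 or clone 1 gives the same fit as leaving out that whole clone, so these are not separate checks. SLC1A5 was -0.05 with median centring, -0.029 after quantile normalization again and -0.086 to 0.086 without single arrays. With the median of probe sets SLC38A1 was 0.032 and GFPT1 -0.034. GLUL in clone 5 minus clone 1 was 2.34 to 2.43 under other scalings and 1.73 with the median of its probe sets, which includes the dim one. The cause of the other changes was not tested. Scanner files were not used here, so background correction could not be varied.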
